A study of Arabidopsis thaliana with 7 samples.

Results

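MUCI10 (AT2G22900), MUCI70 (AT1G28240) and UUAT1 (AT5G04160) are 3 genes of Arabidopsis thaliana whose proteins serve the synthesis of seed mucilage polysaccharides. Each was measured by 1 probe set that names that gene alone, 266802_at, 245660_at and 245698_at in the same order, so the description covers 3 of the 22810 probe sets in the table, on all 7 arrays. The rule for the members uses gene identity and no measured value. The samples were developing seeds of plants carrying the myb5-1 allele (n = 3 arrays) and of wild-type plants of the Columbia accession, Col (n = 4 arrays). All plants were grown on soil under constant light and at the same time, and the embryos in the seeds were globular to walking-stick in stage. The series design calls the replicates biological. MYB5 encodes a MYB transcription factor of the seed coat, and the design asks which genes differ between the genotypes.

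Seed mucilage is made by the epidermal cells of the seed coat, which fill a pocket under the outer wall with polysaccharide and release it as a gel when the dry seed is wetted. Its bulk is the pectin rhamnogalacturonan I, with smaller amounts of galactoglucomannan, xylan and cellulose that shape the gel and hold its inner layer on the seed. The sugars reach the Golgi as nucleotide sugars, pass its membrane through transporters and are joined by glycosyltransferases. UUAT1 is a Golgi transporter of UDP-uronic acids, MUCI70 is a glycosyltransferase-like protein needed for mucilage pectin, and MUCI10 is a galactosyltransferase that decorates glucomannan with galactose. Whole seeds were measured, so the epidermis was a part of each sample, and fewer cells of a type and less RNA per cell cannot be told apart.

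The arrays fell into sets that cut across genotype: myb5 replicate 1 lay with wild-type replicates 1 and 2, away from the rest. The first principal component of all probe sets held 56.8% of the variance and gave these 3 arrays, called the set apart, scores of 39.3 to 46.1, while the other 4 had -47.0 to -21.0. The sets were read from the data, so values along them are descriptions without a test. Of the 11 late seed maturation markers, genes for storage proteins and oil body proteins, 2 were measured (PAP85 and OLEO3). Their summed intensity was 5075 to 7343 in the set apart, against 628 to 1485 elsewhere. By genotype the same sum was 628 to 5416 in myb5 and 836 to 7343 in wild type. The seed coat was represented in all samples, with 3 of 8 tannin markers measured (BAN, DFR and TT15) at a summed intensity of 5031 to 10710 in myb5 and 4459 to 12390 in wild type. That sum was 4459 to 5333 in the set apart, below the 8804 to 12390 of the rest. BAN and DFR made up most of it and were each lower in the set apart without overlap. TT15, at 193 to 257 over all arrays, overlapped between the sets. The embryo marker CLV3, 1 of 6 listed, had 2.39 to 4.65 in myb5 and 1.17 to 7.54 in wild type. The endosperm markers AGL62 and IKU2, 2 of 7 listed, summed to 8.96 to 21.1 in myb5 and 7.91 to 12.9 in wild type. These embryo and endosperm intensities lie near or below the constant of 16 added before taking logs, so the 2 tissues could not be followed here. The fruit wall marker ALC, 1 of 6 listed, had 70.9 to 119.7 in myb5 and 49.3 to 116.6 in wild type, and was lower in the set apart, at 49.3 to 70.9, than in the rest, at 78.1 to 119.7. The green tissue marker RCA, 1 of 4 listed, had 145 to 473 in myb5 and 222 to 573 in wild type, and was higher in the set apart, at 473 to 573, than in the rest, at 145 to 249.

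None of the 3 genes passed the test between the genotypes. Values were compared as log2(intensity + 16) after quantile normalization, with limma fitted across 22746 probe sets and p-values adjusted by Benjamini-Hochberg over all of them. The threshold was an adjusted p of 0.05. Over all probe sets 1 was called, or 0.0044%, and 3.46% had an unadjusted p under 0.05, a level that 0 of the 3 genes reached. All 3 fitted differences were below 0, as were 50.1% of all differences. Their median was -0.37, against -0.0004 over all probe sets, and 0 of 3 separated the genotypes without overlap, against 4.35% of all probe sets.

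UUAT1 came nearest to a genotype difference. Its intensity was 635, 540 and 466 in myb5 replicates 1, 2 and 3, against 994, 609, 618 and 800 in wild-type replicates 1, 2, 3 and 4. Myb5 replicates 2 and 3 lay below every wild-type array, and myb5 replicate 1 lay just above the lower pair of wild-type arrays. The means were 547 ± 85.0 in myb5 (SD, n = 3) and 755 ± 182 in wild type (SD, n = 4). On the log2 scale myb5 minus wild type came to -0.42 (standard error 0.21; limma adjusted p = 1.00), a level 0.75 times that of wild type. The 95% interval of this ratio ran from 0.54 to 1.05, so it holds both a clearly lower level and no change. A log2 difference as low or lower was found for 624 probe sets, or 2.74% of those tested.

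On average UUAT1 was lower in myb5 within each set of arrays, without a call. In the set apart, myb5 replicate 1 lay 0.26 below the mean of wild-type replicates 1 and 2 on the log2 scale, and between them. Among the other 4 arrays, myb5 replicates 2 and 3 lay 0.46 below the mean of wild-type replicates 3 and 4. Both lay below these wild-type arrays, but the share of all probe sets that do so was not taken. With so few arrays the lack of overlap was not read as a result. With a term for the sets the fit gave -0.38 (standard error 0.20; limma adjusted p = 0.92). Between the sets UUAT1 overlapped, the set apart being higher by 0.33 in myb5 and by 0.13 in wild type, where the SD over the 4 wild-type arrays was 0.34.

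**Figure D1:**
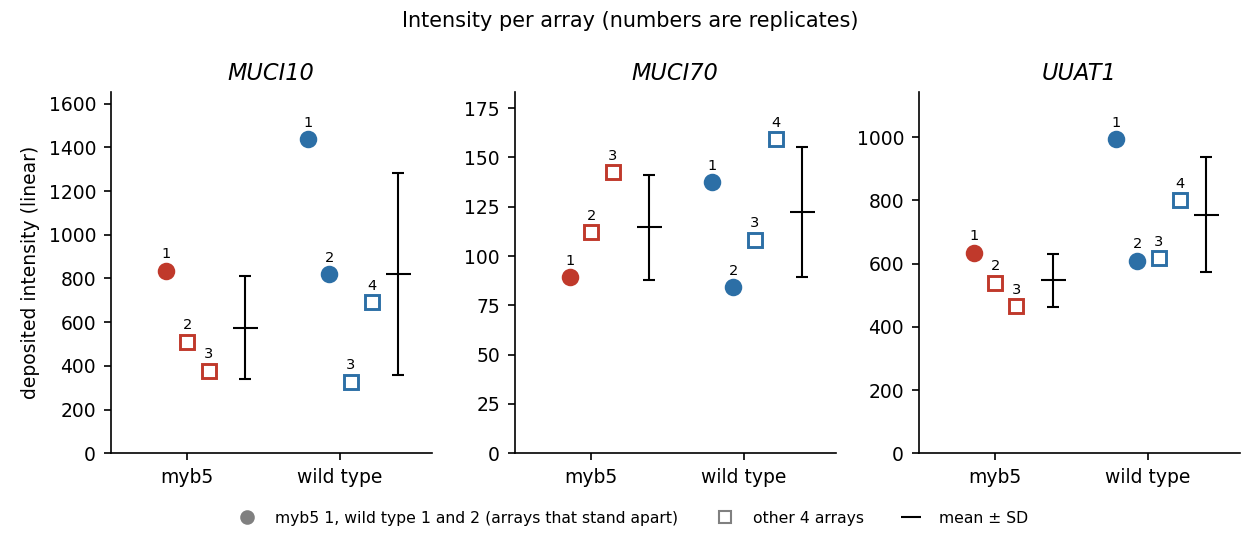
Deposited intensity of MUCI10, MUCI70 and UUAT1 in each array (linear axes from 0), myb5 left and wild type right; numbers are replicates, filled circles are the set apart (myb5 replicate 1 and wild-type replicates 1 and 2), open squares the other 4, and bars are mean ± SD (n = 3 and n = 4). The genotypes overlap for all 3 genes, with the myb5 arrays of UUAT1 at 466 to 635 and its wild-type arrays at 609 to 994, and the filled circles of MUCI10 all lie above its open squares.

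MUCI10 varied the most of the 3 genes, and mostly between arrays of the same genotype. Its intensity was 836, 512 and 378 in myb5 replicates 1, 2 and 3, against 1438, 819, 327 and 691 in wild-type replicates 1, 2, 3 and 4. The highest and the lowest array were both wild type, 4.39-fold apart, and all 3 myb5 arrays fell between them. The means were 575 ± 236 in myb5 (SD, n = 3) and 819 ± 462 in wild type (SD, n = 4). The fitted log2 difference of -0.37 (standard error 0.47; limma adjusted p = 1.00) was smaller than the SDs within genotype, 0.56 in myb5 and 0.85 in wild type. The 95% interval of the ratio of myb5 to wild type ran from 0.36 to 1.67, so these arrays allow a change in either direction.

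The variation of MUCI10 ran along the sets of arrays. Each array of the set apart, at 819 to 1438, lay above all of the rest, at 327 to 691, and 11.6% of all probe sets separated the sets in this direction. The set apart was higher by 0.89 on the log2 scale in myb5 and by 1.13 in wild type. In the same arrays the late seed maturation sum and RCA were higher and the tannin sum and ALC lower, without overlap, as given above, and the part of these in the MUCI10 values was not tested. With a term for the sets the genotype difference of MUCI10 was -0.20 (standard error 0.30; limma adjusted p = 0.97). Within the sets it was -0.34 in the set apart and -0.10 in the rest. The value also rested on single arrays: leaving out myb5 replicate 1 gave -0.66 and leaving out myb5 replicate 3 gave -0.11. Leaving out wild-type replicate 1 gave -0.046 and leaving out wild-type replicate 3 gave -0.73, and MUCI10 passed in none of these fits.

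MUCI70 had the smallest genotype difference of the 3 genes. Its intensity was 89.3, 112 and 143 in myb5 replicates 1, 2 and 3, against 137.5, 84.3, 108 and 159 in wild-type replicates 1, 2, 3 and 4. The myb5 arrays all lay inside the wild-type range. The means were 115 ± 26.7 in myb5 (SD, n = 3) and 122 ± 32.9 in wild type (SD, n = 4). Myb5 minus wild type was -0.11 on the log2 scale (standard error 0.21; limma adjusted p = 1.00), and the 95% interval of the ratio ran from 0.66 to 1.30. The sign was not stable, since the difference was 0.015 without myb5 replicate 1 and -0.0022 without wild-type replicate 4. The sets of arrays overlapped for MUCI70, with log2 differences between the set apart and the rest of -0.38 in myb5 and -0.19 in wild type.

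**Figure D2:**
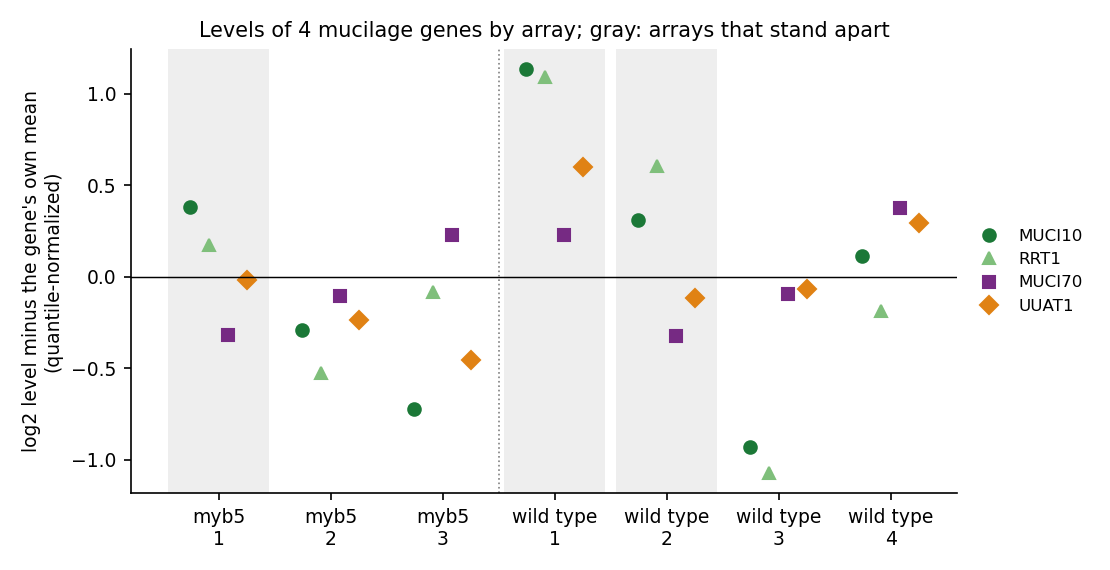
Quantile-normalized log2 level of MUCI10, RRT1, MUCI70 and UUAT1 in each array, each gene centred on its own mean over the 7 arrays, with myb5 left of wild type and the set apart shaded. MUCI10 and RRT1 are high in the shaded arrays and lowest in wild-type replicate 3, whereas MUCI70 and UUAT1 stay within about 0.60 of their means.

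The 3 genes differed in the size or the shape of their variation over the arrays. Likeness was measured as the root mean square difference between the centred log2 profiles over the 7 arrays, so that 0 would mean the same pattern, among 4020 probe sets that name 1 gene and have a mean log2 level of at least 7. All comparisons share the same 7 arrays, so genes that differ between the sets of arrays in the same direction tend to come out alike. The profiles were not scaled, so the measure takes in the size of the variation as well as its shape. MUCI10 varied the most, which adds to its distance from the other members, and likeness of shape alone was not measured. UUAT1 and MUCI70 differed by 0.33, UUAT1 and MUCI10 by 0.46, and MUCI10 and MUCI70 by 0.70. The median over all candidates was 0.41 for UUAT1, 0.72 for MUCI10 and 0.33 for MUCI70. In order of likeness UUAT1 ranked 292 of 4019 candidates for MUCI10, and MUCI70 ranked 1807. MUCI10 ranked 2672 for UUAT1 and 3818 for MUCI70, and MUCI70 ranked 986 for UUAT1.

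The genes most like MUCI10 were AT1G49840 at 0.17, AT1G20823 at 0.22 and AT2G25220 at 0.23. AT1G49840 had intensities of 353, 195 and 203 in myb5 replicates 1 to 3, against 592, 412, 151 and 286 in wild-type replicates 1 to 4, with the same highest and lowest array as MUCI10. Among the mucilage genes RRT1, which encodes a rhamnosyltransferase of the rhamnogalacturonan I backbone, was nearest to MUCI10, at 0.32 and rank 47. Those most like MUCI70 were PDIL5-1, a protein disulfide isomerase-like gene, at 0.05, and AT2G29370 and AT4G35335, both at 0.08. PDIL5-1 had 175, 209 and 271 in myb5 replicates 1 to 3, against 239, 160, 200 and 296 in wild-type replicates 1 to 4, again high in wild-type replicate 4 and low in wild-type replicate 2. SBT1.7, a subtilase gene of the seed coat, ranked 16 for MUCI70 at 0.14, and it and RRT1 were chosen for these sentences after their values were seen. Those most like UUAT1 were AT3G61670 at 0.14 and AT1G15140 and AT1G13190 at 0.15 each. AT3G61670 had 153, 131 and 127 in myb5 replicates 1 to 3, against 198, 126, 146 and 170 in wild-type replicates 1 to 4. None of these genes passed the test between the genotypes.

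The lists for mucilage synthesis, adhesion, modification and release hold 31 genes, of which 9 were measured, the 3 above included. Measured means here that a probe set names the gene alone in the annotation used, so an unmeasured gene may still be on the array. Of the other 28, 6 were measured; 0 were higher and 0 were lower in myb5 by the limma test, and 0 had an unadjusted p under 0.05. Of these 6 differences 3 were above and 3 below 0, with a median of 0.08. The 8 genes listed for mucilage cellulose and adhesion were not analysed here. The log2 differences of the 5 measured synthesis genes, MUCI10, MUCI70 and UUAT1 included, ran from -0.42 to -0.11, and those of the 4 measured modification and release genes from -0.002 to 0.29. Over all probe sets 50.1% of differences were below 0. The set apart makes up a smaller part of the myb5 arrays than of the wild-type arrays, which enters these values. With a term for the sets the ranges lay closer, at -0.38 to -0.074 and -0.052 to 0.24. A difference between these groups of genes was not tested. Of the 9 measured genes, UUAT1, MUCI10 and PME58 kept their sign in every alternative fit, all of which reuse the same arrays.

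Among the other synthesis genes, RRT1 had intensities of 798, 478 and 655 in myb5 replicates 1 to 3, against 1534, 1129, 326 and 614 in wild-type replicates 1 to 4. Like MUCI10, it was higher in each array of the set apart than in any of the rest. Its genotype difference was -0.25 on the log2 scale (standard error 0.49; limma adjusted p = 1.00). That value had the opposite sign, 0.072, without wild-type replicate 1, and was 0.32 in a fit without the set apart. MUCI21, a xylosyltransferase-like gene needed for mucilage adherence, had 73.5, 39.8 and 42.9 in myb5, against 73.0, 49.4, 50.3 and 54.0 in wild type. The highest array of each genotype belonged to the set apart, but so did the lowest intensity in wild type, 49.4 in replicate 2, and the sets overlapped. The genotypes differed by -0.17 on the log2 scale (standard error 0.21). Leaving out each array moved this value between -0.40, without myb5 replicate 1, and -0.026, without myb5 replicate 2; it was -0.082 without myb5 replicate 3 and -0.069 without wild-type replicate 1.

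Among the modification and release genes, PMEI14 and PME58 ran the other way between the sets of arrays. PMEI14, a pectin methylesterase inhibitor gene, had 4094, 10110 and 7113 in myb5 replicates 1 to 3, against 3980, 4239, 9667 and 7417 in wild-type replicates 1 to 4. PME58, a pectin methylesterase gene, had 4962, 7341 and 7577 in myb5, against 4519, 4314, 6653 and 6678 in wild type. They were lower in each array of the set apart than in any of the rest, a direction found for 13.8% of all probe sets, whereas MUCI10 and RRT1 were higher there. Their genotype differences were 0.20 for PMEI14 and 0.29 for PME58 on the log2 scale, with standard errors of 0.38 and 0.22, and leaving out each array gave 0.16 (without wild-type replicate 2) to 0.46 (without myb5 replicate 1) for PME58. SBT1.7 had a genotype difference of -0.002 and PER36, a peroxidase gene of mucilage release, one of 0.16 with a standard error of 0.44. Of 19 listed seed coat regulators 2 were measured, DF1 with a log2 difference of 0.30 and SEU with -0.14, and neither passed.

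**Figure D3:**
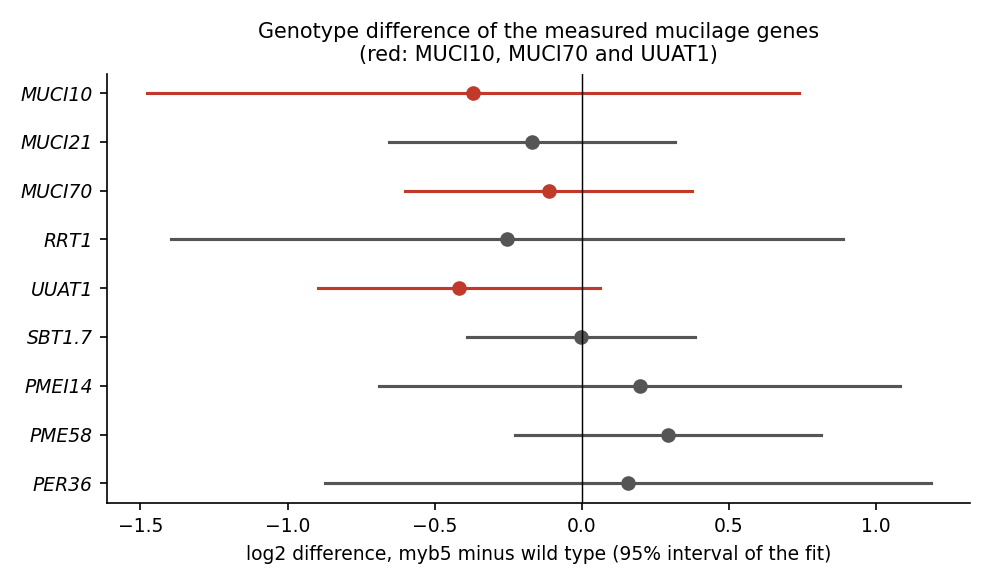
Log2 difference, myb5 minus wild type, of the 9 measured mucilage genes with the 95% interval of the limma fit (n = 3 and n = 4 arrays); red marks MUCI10, MUCI70 and UUAT1. Every interval includes 0, and that of UUAT1, from -0.90 to 0.06, reaches least far above 0 among the 3 red genes.

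The sign of the UUAT1 and MUCI10 differences was the same in all 19 alternative fits. The filters on dim probe sets and the trend and robust settings could not change it, since they leave the difference as it is. The fit with the replicate block nearly repeats that without wild-type replicate 4. All 19 reuse the same arrays, and the share of all probe sets that keep their sign was not taken. UUAT1 ran from -0.52 to -0.26, and its smallest limma adjusted p over these fits was 0.68. MUCI10 ran from -0.73 to -0.046, with a smallest limma adjusted p of 0.73. MUCI70 ran from -0.28 to 0.015, with a smallest limma adjusted p of 0.91.

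**Figure D4:**
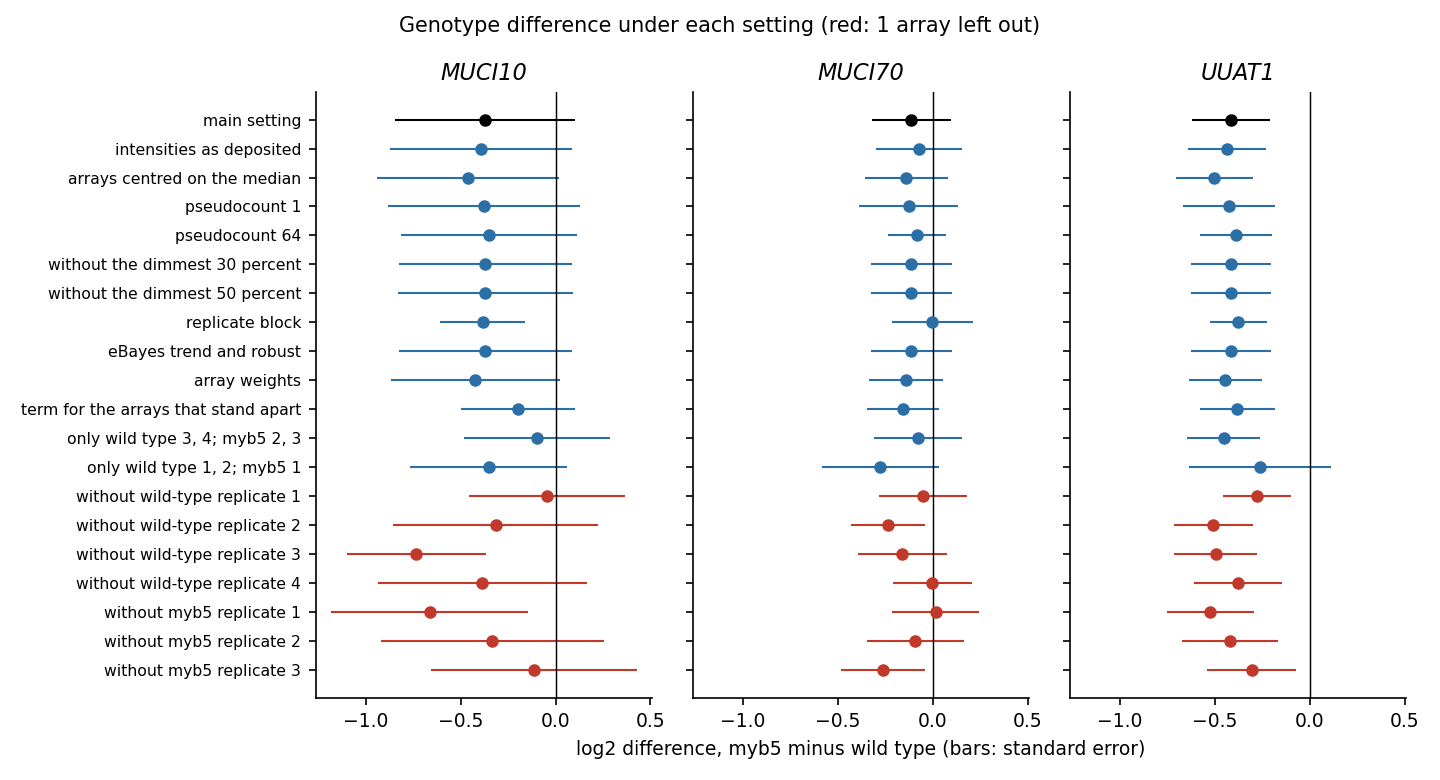
Log2 difference, myb5 minus wild type, of MUCI10, MUCI70 and UUAT1 under the main setting (black) and 19 alternatives (blue; red where 1 array was left out), with the standard error of each fit as bars. UUAT1 stays between -0.52 and -0.26, MUCI10 spreads from -0.73 to -0.046, and MUCI70 lies between -0.28 and 0.015.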

How the data were processed

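RNA from whole developing seeds was amplified in repeated oligo(dT)-primed cycles, labelled with biotin and hybridised to Affymetrix arrays, per the labels' protocols. The deposited values are linear signal intensities, 1 per probe set and array. Software and genome build are not given in the sources used here. Each array had been scaled to a trimmed mean of 150.01, judged by its values. No detection call was used, and the number of arrays limits the precision. After removal of 64 control probe sets, log2(intensity + 16) was quantile normalized and fitted with limma 3.58.1 in R 4.3.3, with genotype as the only term, and Benjamini-Hochberg adjustment over 22746 probe sets. Levels are deposited intensities, and differences are on the normalized log2 scale. The fit was tested on simulated data with independent noise in each array and planted changes larger than any genotype difference given here. Those data lack the sets of arrays, so the test does not show how the fit does on the real arrays.

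Genes were named from GEO's platform annotation through a RefSeq gene table (TAIR10.1). A single gene was named by 13513 probe sets and several by 503, while 8730 have no name here. List genes were matched by symbol or synonym; RRT1, MUCI21, SBT1.7, PMEI14, PME58, DF1 and FEI2, whose symbols the gene table lacks or gives to several genes, were matched by loci added by hand after the data were available. The members, lists and alternatives were chosen with earlier results of these data known. The text names the members, all measured list genes and the 3 genes most alike in pattern to each member, and says where a gene was chosen otherwise. Protein and promoter sequences were not used here, so a planned motif description was not run. The level of MYB5 was not analysed here. The alternatives were other normalizations, pseudocounts of 1 and 64, filters on dim probe sets, the replicate number as a block, trend and robust settings, array weights, a term for or subsets of the arrays that stand apart, and leaving out each array.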

Additional observations from a re-analysis of the deposited data

Results flagged for a closer look

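Wild-type arrays far from the other wild-type arrays were looked for in the 30 genes named in the report, and 3 were found; chance gives about 1 in 20. MUCI21 had a normalized log2 level of 6.50 in wild-type replicate 1, where the rest of wild type had 6.08 to 6.14. CLV3 had 4.11 in wild-type replicate 3, against 4.50 to 4.55, and IKU2 had 4.68 in wild-type replicate 3, against 4.26 to 4.33, both close to the value of 4 that an intensity of 0 takes on this scale. MUCI10, MUCI70 and UUAT1 had no such array. Groups of 3 were not tested.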

How the results depend on the processing

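The calls for MUCI10, MUCI70 and UUAT1, and the count of 0 among the other 6 measured mucilage genes, were the same in all 19 alternatives. Leaving out each array gave -0.73 to -0.046 for MUCI10, -0.26 to 0.015 for MUCI70 and -0.52 to -0.28 for UUAT1, and 1 to 2 called probe sets over the whole array, 2 without myb5 replicate 1. MUCI70 reversed only there, at 0.015. With the replicate block 0 probe sets were called, and the differences were -0.38 for MUCI10, -0.0023 for MUCI70 and -0.38 for UUAT1. Wild-type replicate 4 has no myb5 array of its number, so it adds nothing to the genotype difference in that fit. Leaving it out without the block gave nearly the same, -0.39, -0.0022 and -0.38. Deviations of same-numbered arrays correlated at 0.63, -0.30 and 0.55, so the numbers were not taken to pair the samples. Fits confined to the set apart (myb5 replicate 1, wild-type replicates 1 and 2) or to the rest gave 0 calls each with fewer samples, and the first assumes that its single myb5 array varies as wild type does. Other reversals were those of RRT1 (0.32 without the set apart, and -0.65 to 0.072 leaving out each array), MUCI21 (0.19 in the set apart), SBT1.7 (0.11 with the block, 0.0059 with array weights, and -0.084 to 0.11 leaving out each array), PER36 (-0.26 to 0.39) and PMEI14 (-0.046 to 0.53), both leaving out each array. The causes were not tested. The unadjusted limma p of UUAT1 went under 0.05 when arrays were centred on the median and without wild-type replicate 2, where its differences were -0.50 and -0.51, and that of MUCI21 did so without myb5 replicate 1, at -0.40. With no detection call, how far signals lie above background is unknown here.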
